A study of Mus musculus with 6 samples.

Results

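The subunits of oxidative phosphorylation that are encoded in the nucleus were followed in 6 mRNA libraries of mouse CD4 T cells cultured towards regulatory T (Treg) cells. Members were taken by symbol: every gene whose name begins with Nduf, Uqcr or Atp5, or with Cox4 to Cox8, together with Sdha, Sdhb, Sdhc, Sdhd and Cyc1, and without symbols containing -ps. This rule gave 93 of the 24493 genes in the table: 36 subunits of complex I, 8 assembly factors of complex I (Ndufaf), 4 genes of complex II, 9 of complex III, 19 of complex IV, 15 of complex V and 2 others, Atp5s and Ndufa4l2. Ndufa4 carries a complex I name and was counted with complex IV, where later work places its product.

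Of the 6 libraries, 3 were wild type (WT) and 3 carried Ifnar1-SA, all from splenic naive CD4 T cells differentiated in vitro. Ifnar1 is a subunit of the receptor for type I interferons, and SA is known from published work as a knock-in that puts alanine in place of a serine needed to degrade the receptor. The labels give no animal age, sex or strain and no culture time or cytokines, and leave unsaid whether each library had its own animal or culture, so that the tests gauge only how far these libraries scatter, which may be technical. Expression was given as TPM (transcripts per 1000000), a length-corrected share with the same sum in every library, so that sequencing depth is unknown and a fall of one transcript group raises the share of the others. In bulk RNA, fewer cells of a type and less RNA per cell cannot be told apart.

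The respiratory chain passes electrons from NADH (complex I) and succinate (complex II) through complex III to complex IV, which reduces oxygen, and the proton gradient built along the way drives the ATP synthase, complex V. Some subunits of complexes I, III, IV and V are encoded in mitochondrial DNA, and the others, with all of complex II, are encoded in the nucleus, made in the cytosol and imported. Cells must therefore match many small nuclear-encoded subunits to each other and to the mitochondrial ones. Activated T cells enlarge this machinery as they grow, and Treg cells are known for a strong reliance on it. The deposited table had 0 rows with the mt- prefix of mitochondrial genes, which are not analysed here.

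T cell markers were present throughout, with Cd3d at 280 to 319 TPM (WT) and 330 to 366 TPM (Ifnar1-SA), without overlap, and Cd4 at 108 to 124 TPM. Cd3g did not overlap either (734 to 801 TPM in WT, 833 to 978 TPM in Ifnar1-SA). The genotypes overlapped for Cd4, for Lck (385 to 440 and 376 to 552 TPM) and for Cd3e (101 to 123 and 90.2 to 109 TPM). Of the Treg markers, Il2ra (359 to 444 TPM), Ctla4 (482 to 876 TPM) and Tnfrsf18 (2371 to 3238 TPM) were high. Foxp3, the defining transcription factor, reached at most 1.82 TPM, Ikzf2 at most 1.97 TPM and Itgae at most 1.42 TPM. The genotypes did not overlap for Ctla4 (482 to 698 TPM in WT, 762 to 876 TPM in Ifnar1-SA) or for the low Foxp3 (0.276 to 0.697 and 0.746 to 1.82 TPM). They overlapped for Il2ra, Tnfrsf18, Ikzf2 and Itgae. Summed B cell markers (5 genes) were at 3.59 to 11.4 TPM, macrophage and dendritic markers (6 genes) at 8.06 to 13.6 TPM and erythroid and platelet markers (6 genes) at 0.418 to 2.02 TPM, with Hbb-bs at 0 in every library. CD8 T and NK markers summed to 951 to 2723 TPM (WT) and 1743 to 2612 TPM (Ifnar1-SA), nearly all of it Nkg7, with Ncr1 and Klrd1 under 1 TPM. Of these, Gzma was at 31.6 to 36.3 TPM (WT) and 61.4 to 109 TPM (Ifnar1-SA), without overlap. Among all genes averaging 1 TPM or more, 1.97% were higher in every Ifnar1-SA library. Neutrophil and mast cell markers (6 genes, of which 4 stayed under 1 TPM) summed to 7.55 to 11.1 TPM (WT) and 17 to 22.6 TPM (Ifnar1-SA), carried by Ly6g. Stromal and endothelial markers (5 genes) summed to 2.73 to 5.61 TPM, and the 5 T cell markers found to 1652 to 1762 TPM in WT against 1776 to 1975 TPM, without overlap. What part these differences have in any value below was not tested.

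The members were abundant, and their summed share differed between the genotypes by less than the spread between libraries. They took 5.01, 3.27 and 4.48% of all TPM in WT 1, 2 and 3, and 3.60, 4.61 and 4.55% in Ifnar1-SA 1, 2 and 3. The means were 4.25% ± 0.892 (SD, n = 3) and 4.25% ± 0.564 (SD, n = 3). Within each genotype 1 library was low, WT 2 and Ifnar1-SA 1, and the groups overlapped. Of the 93 members, 71 had a mean of at least 100 TPM and 13 a mean of at least 1000 TPM. Under 1 TPM on average, and so outside the test, were Cox6a2, Cox8b and Ndufa4l2.

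**Figure D1:**
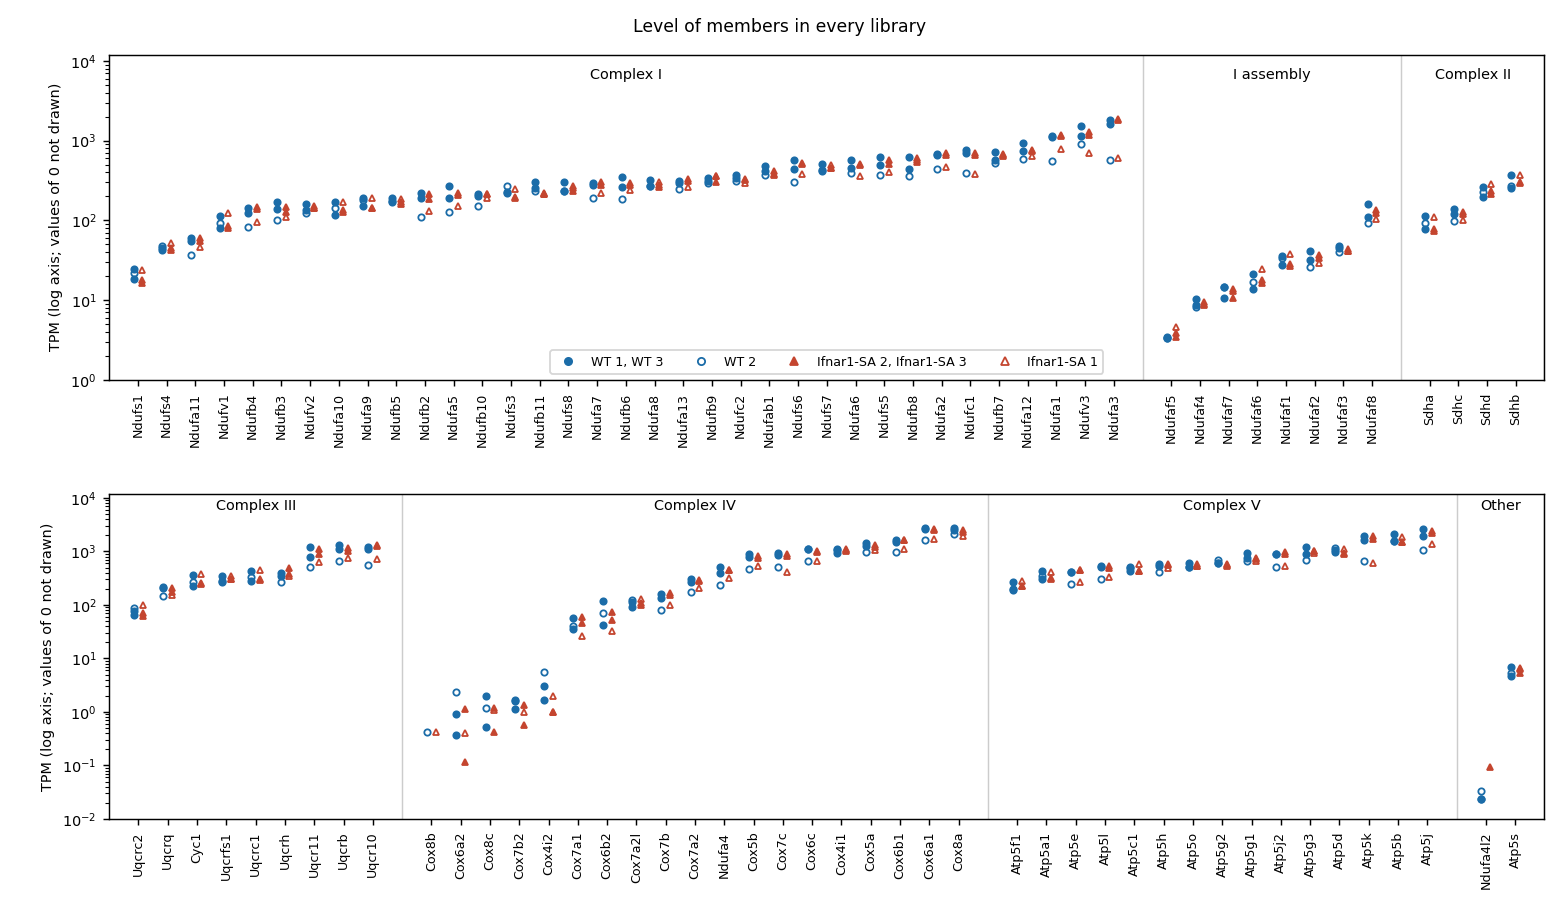
TPM of the members (log axis) in each of 6 libraries, ordered by mean level within each complex, with circles for WT, triangles for Ifnar1-SA and open symbols for WT 2 and Ifnar1-SA 1; single points are libraries and values of 0 are not drawn. Tested complex I subunits ran from Ndufs1 at a mean of 20.4 TPM to Ndufa3 at 1387 TPM, and the open symbols lie below the filled ones for many of the abundant members.

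No member differed between the genotypes past the threshold. Values were tested as log2(TPM + 1), which understates the change of low genes, with limma (two-sided, Benjamini-Hochberg adjustment over the 12141 genes averaging 1 TPM or more, threshold 0.05). Of the 90 members tested, 0 passed, against 7 of all genes tested (0.0577%), of which 0.0165% were higher and 0.0412% lower in Ifnar1-SA. At an unadjusted p under 0.05 stood 1 of 90 members (Cox4i2, lower), against 3.12% of all genes, 1.44% higher and 1.68% lower. Every member's adjusted p was 0.9997, which does not show that the genotypes were alike. The median log2 fold change of the members, Ifnar1-SA minus WT, was 0.01, with 50 above and 40 below 0, beside −0.06 for all genes tested, with 4499 above and 7642 below 0.

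The size of difference that these libraries leave possible can be read from the intervals. The 95% interval of the log2 fold change lay between −1 and 1 for 84 of the 90 members, and between −0.5 and 0.5 for 23. The median half-width was 0.50. Without WT 2 and Ifnar1-SA 1, which leaves 2 libraries per genotype, 44 members had intervals between −0.5 and 0.5. Between −1 and 1 lay 85, and in complex IV this count fell from 15 to 12. The members' median residual SD went from 0.26 to 0.14, and again 0 members passed (limma, 0.165% of all genes). This pair was picked because many members were low in it, so a smaller spread of the members follows from the choice. The narrower intervals therefore do not show what difference the 6 libraries leave possible. For all genes tested, the median residual SD went from 0.25 to 0.17. Libraries of the genotypes did not overlap for 3 members: Ndufaf5 was higher in every Ifnar1-SA library (background 1.97% of genes tested), and Ndufb11 and Atp5g2 were lower in every one (background 3.8%).

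**Figure D2:**
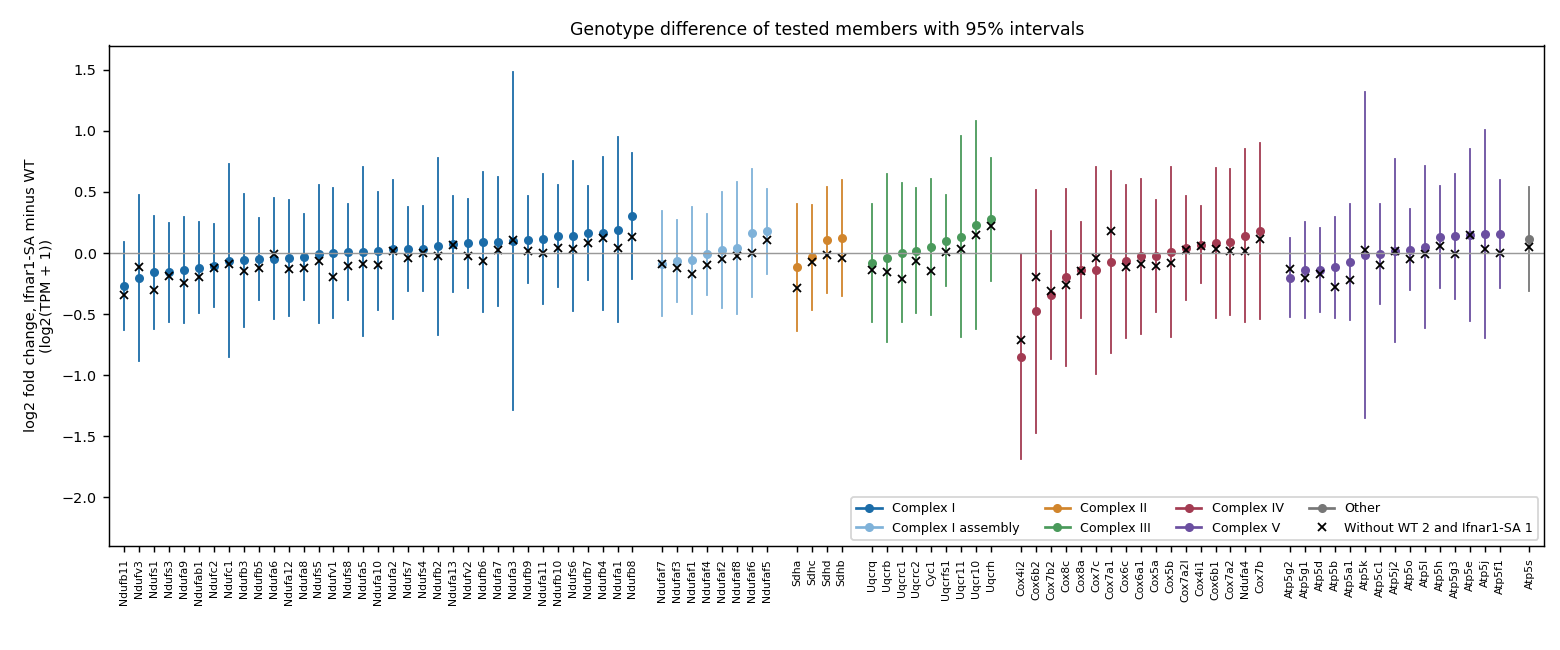
Log2 fold change of tested members, Ifnar1-SA minus WT on the log2(TPM + 1) scale, as a point with its 95% interval from limma, coloured by complex, and, as a cross, the value without WT 2 and Ifnar1-SA 1. Points run from −0.85 (Cox4i2) to 0.30 (Ndufb8), and the widest intervals belong to Ndufa3 and Atp5k.

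Many members differed widely between libraries of 1 genotype, and in the same libraries. For 44 of the 90 (48.9%), WT 2 and Ifnar1-SA 1 were the 2 lowest libraries, against 4.77% of all genes tested. The pattern was not limited to the members, since the same held for 36 of 83 cytosolic ribosomal protein genes. Across all genes the commoner pattern was the opposite, with this pair the 2 highest for 35.6%, and for 6 of 90 members. The pair was singled out after these values were seen, and no other pair was the 2 lowest for more than 10 members. The median deviation of the members from their mean over 6 libraries, on the log2 scale, was 0.23, −0.19 and 0.03 in WT 1, 2 and 3 and −0.11, 0.09 and 0.03 in Ifnar1-SA 1, 2 and 3.

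The low values fell more often on members with short transcripts. Among the 44, the median annotated transcript length was 597 bases (321.5 to 2675.5), and among the other 46 it was 1166 bases (435 to 3632). The 29 tested members under 600 bases had sums of 13094 (WT 2) and 13893 TPM (Ifnar1-SA 1), below all 4 of the remaining libraries (21274 to 22855 TPM). The 34 members of 1000 bases or more did not follow this order. Their sums were 7445 (WT 2) and 8770 TPM (Ifnar1-SA 1), within the 7373 to 9405 TPM of the others. The ratio of the first sum to the second was thus 1.76 in WT 2 and 1.58 in Ifnar1-SA 1, and 2.43 to 2.89 elsewhere.

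Over the 90 members, Spearman's rho between transcript length and deviation was 0.49 in WT 2 and 0.68 in Ifnar1-SA 1, −0.66, −0.61 and −0.59 in WT 3 and Ifnar1-SA 2 and 3, and −0.06 in WT 1. These values describe genes of shared libraries, which are not independent. Over 12004 genes with a known length, rho was 0.13 in WT 2 and 0.06 in Ifnar1-SA 1, and lay between −0.12 and −0.002 in the others. Non-member genes under 600 bases (1157 genes) had a median deviation of 0.22 in WT 2 and −0.03 in Ifnar1-SA 1, beside −0.48 and −0.33 for members of that length. Small RNA genes were not taken out of this set or of the trend over all genes, so it does not describe short messenger RNAs alone. That trend in WT 2 was at 0.14 at 300 bases and −0.09 at 450 bases, and in Ifnar1-SA 1 at 0.0008 and −0.10. The cytosolic ribosomal protein genes (83 tested, median length 771 bases) stood at −0.07, −0.06 and 0.14 in WT 1, 2 and 3. In Ifnar1-SA 1, 2 and 3 they stood at −0.11, 0.13 and −0.01, so that WT 1 was as low as WT 2. WT 2 and Ifnar1-SA 1 were the 2 lowest libraries for 36 of them and the 2 highest for 22. GC content had a rho between −0.12 and 0.10 over the members in every library. With the length trend of all genes removed from each library, the members' median deviation was −0.27 in WT 2 and −0.10 in Ifnar1-SA 1. Small RNA genes took 15.6% of TPM in WT 2, 12.8% in Ifnar1-SA 1 and 10.9 to 12.9% in the others, and their part in the pattern was not tested.

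**Figure D3:**
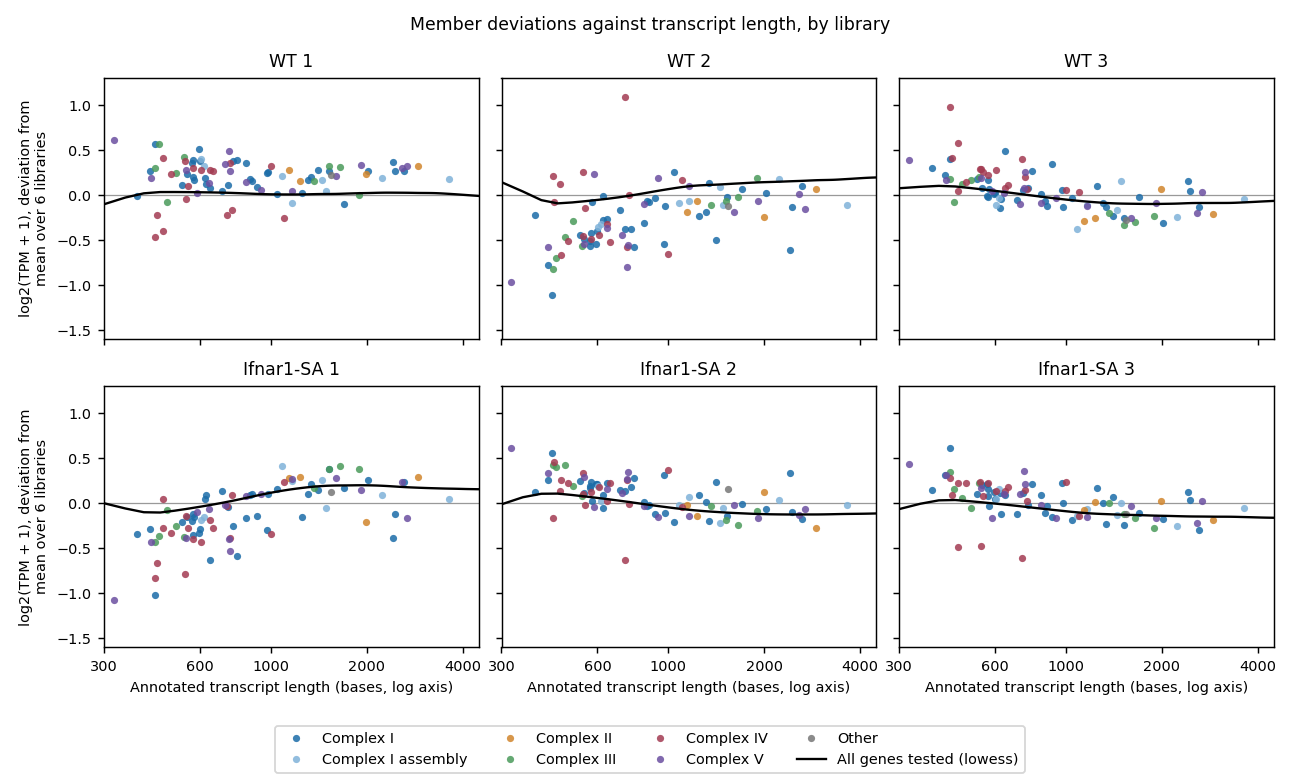
Deviation of tested members from their own mean over 6 libraries (log2(TPM + 1)) against annotated transcript length (log axis), 1 panel per library, coloured by complex, with a smooth trend over all genes tested in black. In WT 2 and Ifnar1-SA 1 most short members lie below 0 and below the black line, and in WT 3 and Ifnar1-SA 2 and 3 most lie above 0.

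Members also differed in how closely they followed the rest. Pearson's r over the 6 libraries between a member and the mean of the other members was above 0.8 for 40 of 90 (median length 597 bases) and below 0 for 24 (median length 1199 bases). Members with the lowest r were Cox7a2l (−0.85), which assembles complex III and IV into supercomplexes, Ndufs4 (−0.73) of complex I, the rare isoform Cox4i2 (−0.72) and Ndufs3 (−0.70) of complex I. Members with the highest were the complex I accessory subunits Ndufa5 (0.99) and Ndufb3 (0.98). Each r rests on 6 libraries with WT 2 and Ifnar1-SA 1 among them. Of all non-members, the gene closest to the members' mean was Smdt1, a subunit of the mitochondrial calcium uniporter, with 493, 380 and 448 TPM across WT 1 to 3 and 404, 462 and 453 across Ifnar1-SA 1 to 3. The next were Hist2h3b, Fgf2, Fkbp2 and Hist1h4d. Their r was 0.98 to 0.99, the highest among all genes tested and so a description only.

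**Figure D4:**
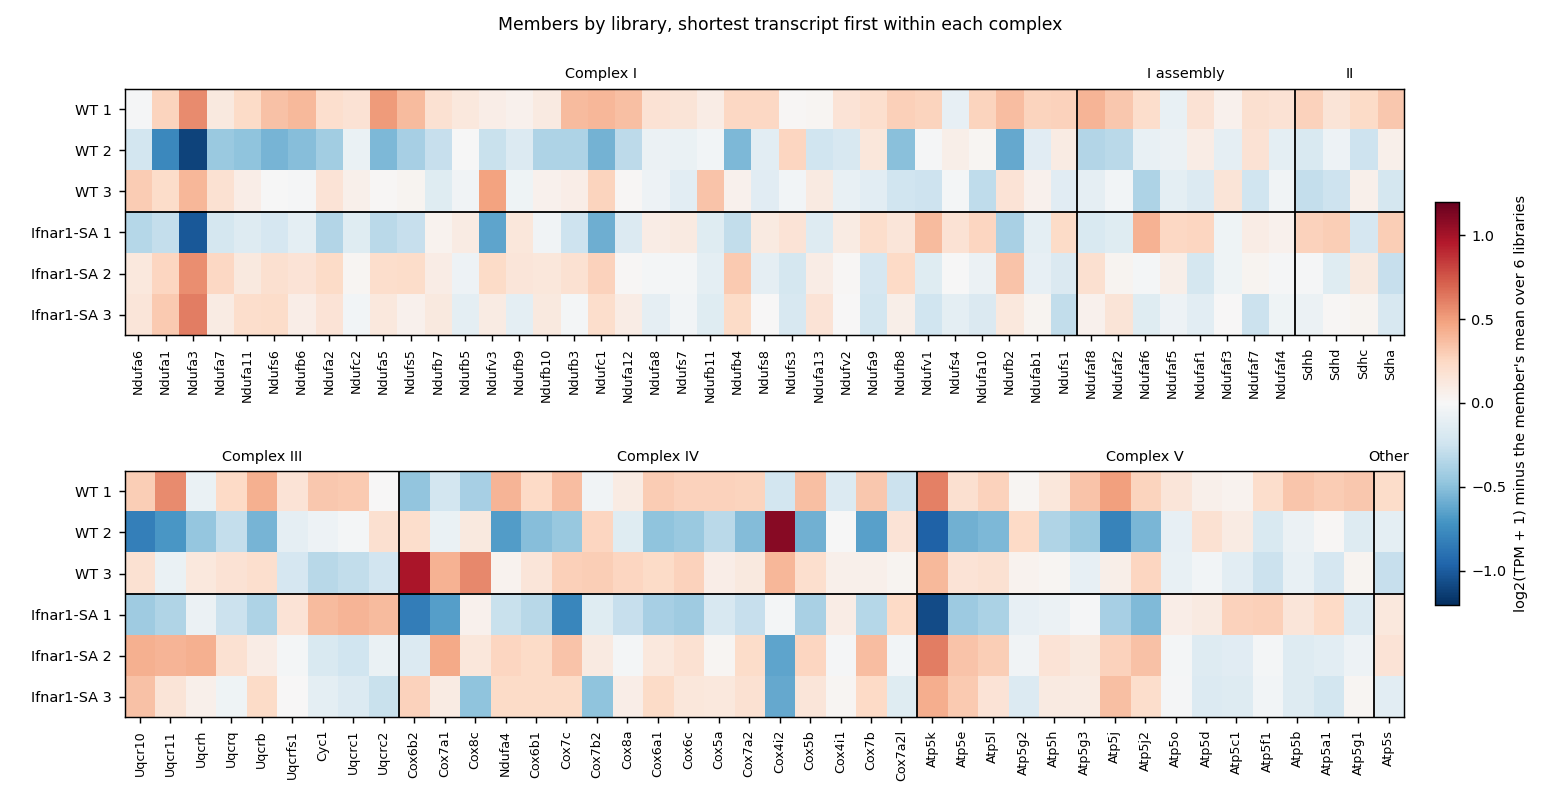
Log2(TPM + 1) of tested members minus their mean over 6 libraries (colour), with libraries as rows and members as columns, shortest transcript first within each complex. WT 2 and Ifnar1-SA 1 are blue over many of the shorter members of complexes I, III, IV and V, and Ifnar1-SA 1 is red over the long complex III members Cyc1, Uqcrc1 and Uqcrc2.

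Complex I, the NADH dehydrogenase, split into core and accessory subunits by library. These classes also differed in median transcript length (1312 and 704 bases), and the part of length in the split was not tested. Its 36 subunits had a median log2 fold change of 0.01, from −0.27 to 0.30, with 0 of 36 past the threshold and 0 at an unadjusted p under 0.05. The 7 core subunits, which carry the flavin and iron-sulfur clusters, summed to 0.148, 0.132 and 0.124% of TPM in WT 1, 2 and 3 and 0.149, 0.125 and 0.127% in Ifnar1-SA 1, 2 and 3. Their highest libraries were thus WT 1 and Ifnar1-SA 1, and for 0 of the 7 were WT 2 and Ifnar1-SA 1 the 2 lowest. The 29 accessory subunits summed to 1.38, 0.865 and 1.28% in WT and 0.955, 1.32 and 1.29% in Ifnar1-SA, with that pair the 2 lowest for 20 of the 29.

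Ndufa3, a small membrane-arm subunit (GRCm38 chromosome 7, 3617373 to 3620327, plus strand), had the highest mean in complex I. It measured 1823, 571 and 1623 TPM across WT 1 to 3 and 608, 1812 and 1886 across Ifnar1-SA 1 to 3. Each genotype held 1 library far below its others, the groups overlapped, and the log2 fold change of 0.10 had a 95% interval from −1.28 to 1.48. Ndufv3, a small subunit of the NADH-binding module, measured 1149, 907 and 1525 TPM across WT 1 to 3 and 704, 1278 and 1164 across Ifnar1-SA 1 to 3 (95% interval −0.88 to 0.48). Its neighbours in that module were much lower, with Ndufs1 at 21.5 ± 3.13 TPM (WT) and 19.3 ± 4.01 TPM (Ifnar1-SA) (SD, n = 3) and Ndufv1 at 96.0 ± 17.4 and 96.8 ± 23.7 TPM.

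Ndufb8, a membrane-arm subunit whose protein is often used as a gauge of assembled complex I, had the highest log2 fold change of all members. It measured 627, 364 and 436 TPM across WT 1 to 3 and 568, 607 and 540 across Ifnar1-SA 1 to 3, a log2 fold change of 0.30 (SE 0.22) and 0.13 without WT 2 and Ifnar1-SA 1. WT 1 was above every Ifnar1-SA library. Ndufb11, an X-linked membrane-arm subunit (chromosome X, 20615326 to 20617619, minus strand), had the lowest log2 fold change of complex I. It measured 251, 231 and 300 TPM across WT 1 to 3 and 214, 218 and 213 across Ifnar1-SA 1 to 3, without overlap, and the log2 fold change of −0.27 (SE 0.15) did not pass (limma adjusted p = 0.9997).

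The 8 Ndufaf assembly factors, which build complex I and do not stay in it, were expressed at lower levels, with a median of 25.1 TPM. Their median log2 fold change was 0.01, from −0.09 (Ndufaf7) to 0.18 (Ndufaf5), and 0 passed. Ndufaf8 was the most abundant, at 121 ± 34.0 TPM (WT) and 122 ± 15.8 TPM (Ifnar1-SA) (SD, n = 3), followed by Ndufaf3 at 44.1 ± 4.05 and 42.1 ± 0.970 TPM. Ndufaf5, a methyltransferase-like factor that modifies Ndufs7, measured 3.40, 3.45 and 3.31 TPM across WT 1 to 3 and 4.55, 3.91 and 3.47 across Ifnar1-SA 1 to 3, near the floor of the test. Ndufaf7, a methyltransferase needed early in complex I assembly, measured 14.7, 14.5 and 10.7 TPM across WT 1 to 3 and 13.7, 13.1 and 10.5 across Ifnar1-SA 1 to 3.

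Complex II, succinate dehydrogenase, is the only complex made wholly of nuclear-encoded subunits. Its 4 genes had a median log2 fold change of 0.04, from −0.12 to 0.13, and 0 passed. Sdha, the flavoprotein that oxidises succinate, measured 112, 93.6 and 77.3 TPM across WT 1 to 3 and 110, 73.7 and 78.4 across Ifnar1-SA 1 to 3. Sdhb, the iron-sulfur subunit (chromosome 4, 140961203 to 140979193, plus strand), measured 373, 271 and 253 TPM across WT 1 to 3 and 374, 304 and 292 across Ifnar1-SA 1 to 3. Sdhd, a membrane anchor, measured 261, 224 and 196 TPM across WT 1 to 3 and 287, 212 and 236 across Ifnar1-SA 1 to 3. In all 3, WT 1 and Ifnar1-SA 1 were the highest libraries of their genotypes. The other anchor, Sdhc, had instead WT 2 (98 TPM) and Ifnar1-SA 1 (101 TPM) as its lowest.

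Complex III, which passes electrons from ubiquinol to cytochrome c, repeated the split. Its 9 genes had a median log2 fold change of 0.05, from −0.08 (Uqcrq) to 0.28 (Uqcrh), and 0 passed. The catalytic subunits Cyc1 and Uqcrfs1 and the large core proteins Uqcrc1 and Uqcrc2 were highest in Ifnar1-SA 1, where they reached 372, 344, 458 and 99.5 TPM. For 4 of the 5 small subunits, WT 2 and Ifnar1-SA 1 were the 2 lowest. Median transcript lengths were 474.5 bases in the small subunits, 1441.5 in the catalytic subunits and 1774.5 in the core proteins. Uqcr10 measured 1213, 559 and 1119 TPM across WT 1 to 3 and 733, 1324 and 1259 across Ifnar1-SA 1 to 3. Uqcrb, which sits at the ubiquinone site, measured 1311, 662 and 1124 TPM across WT 1 to 3 and 754, 1037 and 1147 across Ifnar1-SA 1 to 3. The exception was Uqcrh, the acidic hinge subunit, with 349, 267 and 401 TPM across WT 1 to 3 and 350, 494 and 384 across Ifnar1-SA 1 to 3 (log2 fold change 0.28, SE 0.21). Uqcrq was at 190 ± 35.9 and 178 ± 27.7 TPM (SD, n = 3). The ratio of Uqcr11 to Uqcrc1 was 2.85, 1.49 and 2.78 in WT and 1.40, 3.73 and 2.98 in Ifnar1-SA.

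Complex IV, cytochrome c oxidase, held the most abundant member and most of the tissue isoforms. Its 17 tested genes had a median log2 fold change of −0.03 and 0 passed. Cox8a, the ubiquitous isoform of the smallest subunit (chromosome 19, 7215153 to 7217616, minus strand), measured 2506, 2120 and 2796 TPM across WT 1 to 3 and 1936, 2309 and 2477 across Ifnar1-SA 1 to 3. Cox6a1 measured 2789, 1615 and 2651 TPM across WT 1 to 3 and 1722, 2467 and 2650 across Ifnar1-SA 1 to 3. Both were lowest in WT 2 and Ifnar1-SA 1. Cox4i1, the ubiquitous regulatory subunit, was steadier, at 936 to 1096 TPM (WT) and 1041 to 1113 TPM (Ifnar1-SA). Cox7b, the member with the highest log2 fold change here (0.18), was at 125 ± 40.4 and 140 ± 34.3 TPM (SD, n = 3). Ndufa4 measured 504, 239 and 391 TPM across WT 1 to 3 and 314, 452 and 445 across Ifnar1-SA 1 to 3, and its hypoxia-linked relative Ndufa4l2 was at most 0.0939 TPM.

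The isoforms known from muscle, lung or testis were low, with exceptions. Cox6b2, known as the testis isoform of Cox6b1, measured 42.9, 69.3 and 119 TPM across WT 1 to 3 and 33.1, 53.3 and 72.8 across Ifnar1-SA 1 to 3. It made up 2.57 to 7.21% of the summed Cox6b TPM in WT and 2.95 to 4.32% in Ifnar1-SA. Cox7a1, known as the heart and muscle isoform, measured 36.2, 40.0 and 56.9 TPM across WT 1 to 3 and 26.5, 58.5 and 45.4 across Ifnar1-SA 1 to 3, beside 248 ± 65.9 and 261 ± 47.1 TPM for Cox7a2 and 109 ± 16 and 112 ± 15.9 TPM for Cox7a2l. Cox6b1, the ubiquitous partner of Cox6b2, was at 1371 ± 356 and 1438 ± 302 TPM (SD, n = 3). The testis genes Cox7b2 and Cox8c had means of 1.23 and 1.05 TPM over all libraries. Cox6a2, a muscle isoform, reached 2.40 TPM in WT 2 and at most 1.15 TPM elsewhere, and Cox8b was listed at 0 in 4 libraries and at 0.421 and 0.425 TPM in WT 2 and Ifnar1-SA 1.

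Cox4i2, the lung-enriched and oxygen-sensitive isoform of Cox4i1 (chromosome 2, 152754173 to 152765037, plus strand), had the lowest log2 fold change of all members. It measured 1.65, 5.58 and 3.05 TPM across WT 1 to 3 and 2.03, 0.983 and 1.01 across Ifnar1-SA 1 to 3. The highest value was in WT 2 and WT 1 was below Ifnar1-SA 1, so that the groups overlapped. The log2 fold change was −0.85 (SE 0.36, 95% interval −1.69 to −0.01), with an adjusted p of 0.9997 (limma), and −0.71 without WT 2 and Ifnar1-SA 1.

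Complex V, the ATP synthase, had 15 genes with a median log2 fold change of 0.02, from −0.20 (Atp5g2) to 0.16 (Atp5f1), and 0 passed. Atp5b, the catalytic beta subunit of the F1 head (chromosome 10, 128083273 to 128090391, plus strand), measured 2104, 1597 and 1571 TPM across WT 1 to 3 and 1847, 1499 and 1499 across Ifnar1-SA 1 to 3. The F1 head holds equal numbers of alpha and beta subunits, whereas Atp5b stood 4.84-fold above Atp5a1 in WT (SD 0.320, n = 3) and 4.70-fold in Ifnar1-SA (SD 0.272, n = 3). Atp5j, a coupling subunit of the peripheral stalk, had the highest mean of complex V, with 2600, 1064 and 1950 TPM across WT 1 to 3 and 1401, 2237 and 2377 across Ifnar1-SA 1 to 3. Atp5f1, the long stalk subunit, was at 220 ± 40.0 and 244 ± 31.6 TPM (SD, n = 3).

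The small membrane subunits Atp5k, Atp5l and Atp5j2, which help ATP synthase form dimers at the cristae edges, all had WT 2 and Ifnar1-SA 1 as their lowest libraries. Atp5k measured 1934, 650 and 1659 TPM across WT 1 to 3 and 604, 1941 and 1720 across Ifnar1-SA 1 to 3. Its ratio to Atp5b was therefore 0.920, 0.407 and 1.06 in WT and 0.327, 1.29 and 1.15 in Ifnar1-SA. The 3 genes of the c ring, Atp5g1, Atp5g2 and Atp5g3, encode the same mature peptide behind different import sequences. In that order their WT means were 786 ± 133, 637 ± 53.2 and 939 ± 262 TPM, and their Ifnar1-SA means 708 ± 45.6, 554 ± 24.3 and 1006 ± 51.8 TPM (SD, n = 3). Atp5g2 measured 603, 699 and 611 TPM across WT 1 to 3 and 554, 578 and 529 across Ifnar1-SA 1 to 3, without overlap (log2 fold change −0.20, SE 0.14, limma adjusted p = 0.9997). Atp5s, a coupling factor outside the complex, was at 5.64 ± 1.2 and 6.14 ± 0.753 TPM (SD, n = 3).

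Levels within a complex spanned a wide range although most subunits are present in 1 copy. Between the lowest and highest tested member the mean differed 68.0-fold in complex I (Ndufs1 and Ndufa3), 3.42-fold in complex II (Sdha and Sdhb), 13.4-fold in complex III (Uqcrc2 and Uqcr10) and 8.34-fold in complex V (Atp5f1 and Atp5j). At the top of complex I, Ndufa3, Ndufv3, Ndufa1 and Ndufa12 followed each other at means of 1387, 1121, 988 and 732 TPM, and the ranges of neighbours in this order overlapped. Very short transcripts and near-identical pseudogenes make such levels less certain, since how the quantification divided reads among copies is not given in the sources used here.

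Proximal promoters of the members were searched for motifs of factors known to drive mitochondrial genes. RefSeq windows (GRCm38.p6, 250 bases before to 50 after the start) were found for 74 members (79 windows) and 8918 of the genes tested (11221 windows). The NRF1 core GCATGCG was in 16.5% of the members' windows, 6.45% of those of genes tested and 3.58% of all 32851 windows, on either strand. The YY1 core ATGGCGG was in 16.5, 8.30 and 4.05%, and the ETS motif CCGGAAG, bound by GABPA, in 22.8, 18.4 and 8.86%. The GC box GGGCGG was in 43.0, 60.5 and 35.7%, and the E-box CACGTG in 7.59, 10.1 and 7.15%. In 1 member window 2 of these motifs overlapped. Members under 600 bases (28 windows) and those of 1000 bases or more (26 windows) held the NRF1 core in 25 and 15.4% (7 and 4 windows). They held the ETS motif in 32.1 and 15.4% (9 and 4 windows), and the YY1 core in 17.9 and 15.4% (5 and 4 windows). The E-box was in 10.7 and 7.69%, and the GC box, in the other direction, in 39.3 and 53.8%. These are descriptions of letters, with no test, and any part of these motifs in the differences between libraries was not tested.

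For each complex the upstream stretch with most kinds of these motifs is shown, with ties settled by mean TPM, outside any annotated exon and at most 150 bases long, from RefSeq (GRCm38.p6), 5′ to 3′ on the gene's strand, with motif matches in capitals, so that the matches can be seen beside the values above. Of the 5 genes, Ndufa3, Uqcr11, Cox6a1 and Atp5e were lowest in WT 2 and Ifnar1-SA 1 and Sdhb was not. Ndufa3 was picked from 9 tied stretches and Uqcr11 from 2, both by mean TPM. Many abundant members were low in this pair, so these 5 genes cannot show whether motifs go with that pattern, which was not tested.
Ndufa3 (complex I), chr7:3617223-3617372, plus strand: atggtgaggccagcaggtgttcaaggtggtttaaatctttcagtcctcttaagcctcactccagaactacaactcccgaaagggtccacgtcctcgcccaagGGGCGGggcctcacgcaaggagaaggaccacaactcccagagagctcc
Sdhb (complex II), chr4:140961053-140961202, plus strand: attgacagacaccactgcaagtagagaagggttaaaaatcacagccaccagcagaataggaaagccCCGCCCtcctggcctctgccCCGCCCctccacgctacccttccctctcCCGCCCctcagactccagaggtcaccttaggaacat
Uqcr11 (complex III), chr10:80406831-80406980, minus strand: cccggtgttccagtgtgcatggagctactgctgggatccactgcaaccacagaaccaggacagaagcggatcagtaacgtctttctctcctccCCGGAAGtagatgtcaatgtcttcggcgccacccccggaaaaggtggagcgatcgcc
Cox6a1 (complex IV), chr5:115348982-115349129, minus strand: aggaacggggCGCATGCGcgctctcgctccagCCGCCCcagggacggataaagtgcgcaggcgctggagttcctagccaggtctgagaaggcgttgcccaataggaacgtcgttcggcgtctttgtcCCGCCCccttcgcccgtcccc
Atp5e (complex V), chr2:174464106-174464255, minus strand: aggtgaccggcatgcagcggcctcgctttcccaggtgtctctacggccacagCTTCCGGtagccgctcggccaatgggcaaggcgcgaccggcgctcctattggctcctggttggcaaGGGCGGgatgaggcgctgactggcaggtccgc
In these stretches the NRF1 core lies in Cox6a1, as a palindrome read on both strands, the ETS motif in Uqcr11 and, on the opposite strand, in Atp5e, and GC boxes in Ndufa3, Sdhb, Cox6a1 and Atp5e.

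Other mitochondrial genes of fixed lists were read beside the members, and 0 genes of these lists passed the threshold (limma), with Pet117 and Vdac1 alone at an unadjusted p under 0.05. Among 42 assembly factors outside the member rule the median log2 fold change was −0.01, with 19 above and 23 below 0. The copper-delivery factor Sco2 was at 15.8 ± 0.921 TPM (WT) and 12.3 ± 1.91 TPM (Ifnar1-SA) (SD, n = 3), and Coa4 was at 13.2 ± 1.3 and 16.4 ± 2.01 TPM. Pet117, an assembly factor of complex IV, was at 1.66, 10.5 and 4.89 TPM in WT and was listed at 0 in all 3 Ifnar1-SA libraries (adjusted p = 0.533 over all genes), and a listed 0 can be a failed estimate. The 25 genes of the tricarboxylic acid cycle and pyruvate entry had a median of −0.04, with 8 above and 17 below 0, where most of all genes tested were also below 0. Pyruvate carboxylase, Pcx, was at 14.9 ± 4.0 and 10.9 ± 2.78 TPM, Pdk1, which switches pyruvate dehydrogenase off, at 23.3 ± 3.78 and 18.1 ± 3.91 TPM, and Dld, a shared dehydrogenase subunit, at 28.7 ± 7.57 and 23.0 ± 3.99 TPM.

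The regulators of mitochondrial biogenesis (19 tested) had a median of −0.06, and the transcription factor Gabpa was at 6.2 ± 0.278 TPM (WT) and 4.89 ± 0.513 TPM (Ifnar1-SA) (SD, n = 3, adjusted p = 0.9997). Yy1 was at 10.5 ± 1.05 and 8.75 ± 1.71 TPM, and Polg2, a subunit of the mitochondrial DNA polymerase, at 9.48 ± 2.44 and 7.75 ± 0.894 TPM. Among 13 carriers and channels, Vdac1, the main outer-membrane pore, measured 227, 284 and 208 TPM across WT 1 to 3 and 191, 185 and 144 across Ifnar1-SA 1 to 3, without overlap (log2 fold change −0.46, adjusted p = 0.9997). The adenine nucleotide carrier Slc25a4 was at 292 ± 41.6 and 265 ± 38.9 TPM, and Slc25a10 at 5.76 ± 1.33 and 6.59 ± 1.79 TPM. Medians were 0.06 for 19 electron carrier and coenzyme Q genes, where Etfb was at 541 ± 184 and 680 ± 86.0 TPM, Coq2 at 15.3 ± 3.97 and 19.2 ± 4.74 TPM and Etfdh at 23.4 ± 1.48 and 20.8 ± 3.47 TPM. They were −0.04 for 22 import and inner-membrane genes, where Tomm5 was at 149 ± 54.7 and 190 ± 20.2 TPM, Opa1 at 5.60 ± 0.903 and 4.73 ± 0.846 TPM and Hspa9 at 163 ± 37.6 and 136 ± 27.6 TPM. They were −0.01 for 11 redox defence genes, where Gpx1 was at 613 ± 23.1 and 683 ± 108 TPM, Glrx2 at 34.6 ± 5.74 and 29.5 ± 1.83 TPM and Cat at 18.1 ± 3.08 and 16.1 ± 2.16 TPM, and −0.25 for 10 hypoxia-linked genes.

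Those 10 hypoxia-linked genes, among them Hif1a at 121 ± 13.9 TPM (WT) and 102 ± 3.55 TPM (Ifnar1-SA) and Higd1a at 372 ± 60.0 and 312 ± 67.0 TPM (SD, n = 3), had 2 above and 8 below 0, against 4499 above and 7642 below among all genes tested. Their median deviation was 0.06, 0.35 and 0.07 in WT 1, 2 and 3 and 0.05, −0.13 and −0.26 in Ifnar1-SA 1, 2 and 3. Without WT 2 and Ifnar1-SA 1 their median log2 fold change was −0.19. Pdk1 was counted both here and with the tricarboxylic acid cycle genes. WT 2 and Ifnar1-SA 1 were the 2 lowest libraries for 2 of these 10, 7 of the 42 assembly factors, 4 of the 22 import genes and 2 of the 19 biogenesis regulators. They were so for 1 of the 11 redox defence genes, 2 of the 25 tricarboxylic acid cycle genes, 1 of the 19 electron carrier genes and 0 of the 13 carriers and channels. Beside these stand 44 of the 90 members and 36 of the 83 ribosomal protein genes. Median transcript lengths were 1478 to 2762 bases in the 8 mitochondrial lists, 748 in the members and 771 in the ribosomal protein genes, and the part of length in these counts was not tested.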

How the data were processed

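Messenger RNA of 3 WT and 3 Ifnar1-SA libraries was quantified with Salmon. The submitters' processing notes name the builds mm10 and GRCm38. Which Salmon version, annotation and filters served is not given in the sources used here. The authors deposited 1 table of gene TPM. TPM keeps no depth, so no counting interval was possible, and precision was read from the spread between libraries.

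Log2(TPM + 1) was tested with limma 3.58.1 (R 4.3.3, intensity trend, two-sided, Benjamini-Hochberg) over the 12141 genes averaging 1 TPM or more, without a replicate block. The test was checked on simulated data with independent noise of equal size in every gene. Shared deviations like those of WT 2 and Ifnar1-SA 1 were not simulated, so the check does not bear on them. A single member is not reported here or plotted, though counts and sums include it. Complexes are described by counts and medians without a test. Members, lists and alternatives were chosen with earlier results of these data known. In each class the genes named were the 2 of highest mean TPM, those of lowest and highest log2 fold change, any with an unadjusted p under 0.05 (up to 6 a direction), those under the filter and isoform sets, and, from other lists, up to 3 of smallest p. Further genes appear in the text because of values already seen. Positions and the median transcript length per gene came from GENCODE M21 (GRCm38) by symbol (93 of 93 members) and promoters from RefSeq (GRCm38.p6). Tables and plots were made in Python 3.11.15 (scipy 1.17.1, numpy 2.4.6, pandas 2.3.3, matplotlib 3.10.9).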

Additional observations from a re-analysis of the deposited data

How the results depend on the processing

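In each of 17 alternatives 0 members passed the threshold, with 0 to 2 at an unadjusted p under 0.05 and a lowest adjusted p over the members of 0.299 (array weights). The median log2 fold change of the members was −0.12 to 0.13 over these settings, both ends from leaving out 1 library (WT 2 and WT 1), and by complex it was −0.10 to 0.13 (I), −0.07 to 0.13 (assembly factors), −0.06 to 0.14 (II), −0.06 to 0.20 (III), −0.19 to 0.13 (IV) and −0.10 to 0.16 (V). The sign of these medians is therefore not settled. Every one moved by less than the lowest-to-highest range of its own group's median deviation over the 6 libraries. The count of all genes past the threshold, 7 in the main test, was 15 with a pseudocount of 0.1, 1 with a mean of at least 5 TPM, 0 after rescaling without small RNA and ribosomal protein genes, 12 with array weights, 20 without WT 2 and Ifnar1-SA 1, 1 with the length trend removed, and 14 to 28 with 1 library left out. It was 6 with no filter, 6 with median-of-ratios scaling, 7 with quantile scaling and 7 without an intensity trend. With a replicate block, 0 members and 0 genes passed. Deviations of same-numbered libraries correlated at −0.11, −0.11 and 0.15, so the numbers were not taken to pair the libraries, and WT 2 correlated best with Ifnar1-SA 1 (0.25). TPM keeps no depth, so what depth limits is unknown, and the members under 1 TPM were not tested.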
